A study of Homo sapiens with 24 samples.

Results

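The interaction of tazemetostat and CART19 in OCI-Ly18 is the amount by which the response of this lymphoma line to CART19 cells differed with the drug from the response without it. OCI-Ly18 is an established human cell line of diffuse large B cell lymphoma. The interaction was taken gene by gene on the log2 scale, as the CART19 minus UTD difference under tazemetostat less the same difference under DMSO, so that 0 means the drug and the CART19 effects simply add. It could be tested for 16467 of the 58735 genes in the count table. All 12 OCI-Ly18 libraries entered the fit, 3 in each of 4 groups, out of 24 libraries in the series. The other 12 come from SU-DHL-4, a second lymphoma line.

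Cells of both lines carried GFP. Tazemetostat at 500 nM or DMSO was given for 72 h, after which CART19 cells, or cells labelled UTD as the control arm, were added for another 48 h with drug or DMSO still present. Live GFP+ cells were sorted and their RNA was sequenced in bulk. The groups are DMSO UTD, TAZ UTD, then DMSO CART19 and lastly TAZ CART19, where TAZ stands for tazemetostat, and where values of the 4 groups follow each other below they keep that order. Every group had thus been with CART19 or UTD cells, and no group of lymphoma cells alone was analysed here. Each line is 1 cell line, the sort kept survivors only, and the labels do not say whether the replicates of a group were separate cultures, so p-values measure the spread between these libraries, which may be technical.

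Tazemetostat inhibits EZH2, the catalytic subunit of Polycomb repressive complex 2, which trimethylates histone H3 at lysine 27 and thereby keeps genes silent. In germinal centre B cells, from which many of these lymphomas arise, EZH2 holds back cell cycle inhibitors and plasma cell genes. CART19 cells are T cells with a chimeric antigen receptor that recognises B cells. On meeting their target they kill it and release cytokines such as interferon gamma, which acts through JAK kinases to raise antigen presentation genes and other interferon-stimulated genes in the surviving cells.

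The OCI-Ly18 libraries held 14889094 to 20148891 counts each, of which 6.10% to 7.55% fell on mitochondrial genes. The leading 2 principal components carried 23.9% and 23.1% of the variance, and the 4 groups lay apart on them. Replicates differed by more than counting noise, most of all TAZ CART19 replicates 1 and 2, with a chi-square per degree of freedom of 13.2 against 2.77 in the closest pair. All 10 B cell lymphoma markers were detected in every group, with a summed level of 3727 to 4173 CPM, counts scaled to the size of the library. Among 20 T cell markers, CD4, CD7, CD28 and THEMIS had no count in any group, and CD3D, CD3G and CD2 had at most 4 counts in a group of 3 libraries. The summed T cell marker level ran from 203 to 219 CPM in DMSO CART19, 241 to 258 in TAZ CART19, 303 to 311 in DMSO UTD and 369 to 375 in TAZ UTD, and was mostly IL7R, TRBC2, ZAP70 and TRAC. Its members did not move together. IL7R had 8037, 11565, 4104 and 6428 counts in the groups, whereas CD247 had 389, 466, 692 and 852. Counts of 14 T cell effector products summed to 122, 141, 217 and 304 in the groups. Among them IFNG had 0, 0, 43 and 72 counts, GZMB 0, 0, 20 and 19, and PRF1 114, 114, 113 and 111. The part of these transcripts in the results was not tested.

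Base composition moved with the interaction. Across 9651 genes with a mean above 8 CPM, the log2 interaction and the GC content of the gene had a Pearson's r of -0.571, a description across genes that share their libraries. Single libraries leaned both ways against their own group mean, from an r of -0.391 in TAZ CART19 replicate 1 to 0.570 in TAZ CART19 replicate 2. Every OCI-Ly18 interaction was therefore also computed with smooth trends of count on GC content and gene length removed within each library. This alternative is called trend removal below. The separate effects of CART19 and of the drug were not recomputed this way. For SU-DHL-4 and the line difference only the numbers of calls are given with trends removed. Its effect is given beside the called genes described, and the part of the GC trend in the calls was not tested otherwise. A call lost under it can keep a log2 value about as large, so both are given.

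**Figure D1:**
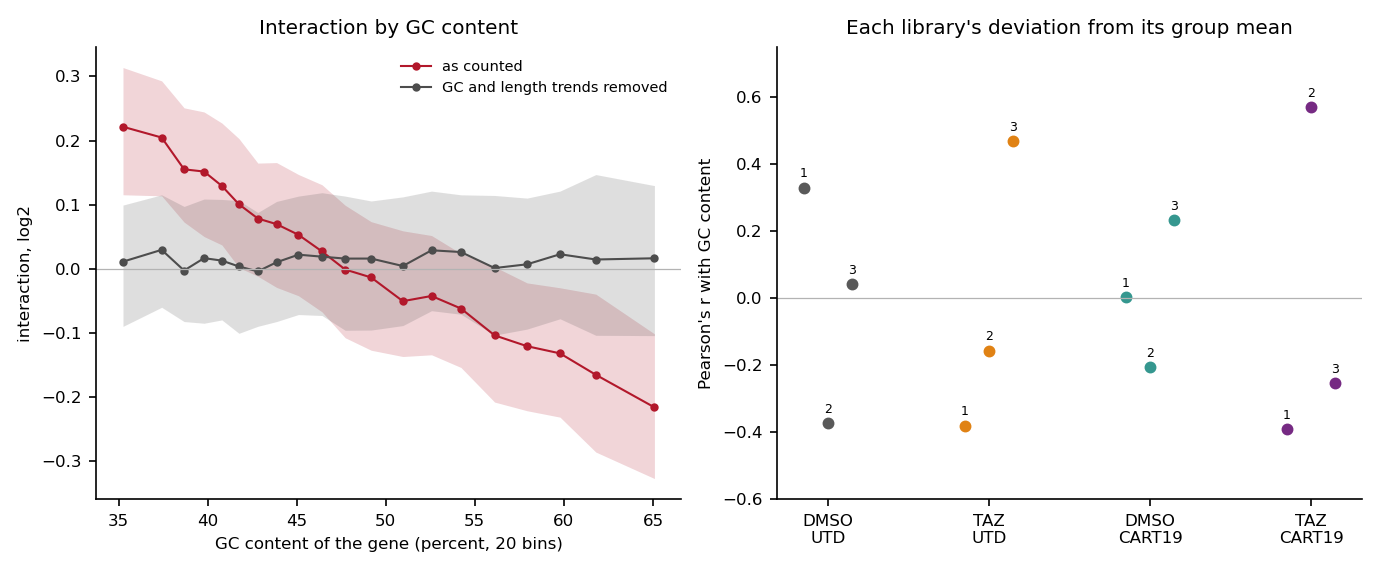
Left, median log2 interaction (line) and its interquartile range (band) in 20 bins of genes by GC content, as counted and with GC and length trends removed. As counted the median runs from 0.22 in the bin of lowest GC content to -0.22 in the bin of highest. Right, Pearson's r between GC content and each library's deviation from its group mean, by group, with replicate numbers. The TAZ CART19 replicates 1, 2 and 3 have an r of -0.391, 0.570 and -0.254, and the first 2 of these are the lowest and highest of all libraries.

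Of the 16467 genes tested, 69 (0.419%) had an interaction with a Benjamini-Hochberg adjusted p under 0.05 in edgeR's quasi-likelihood test. In 55 of them (0.334%) the interaction was positive, which means that the CART19 response was shifted upward under the drug, and in 14 (0.0850%) it was negative. These counts moved with the setting: 166 and 72 with DESeq2, 22 and 3 with the replicate block, 571 and 411 without TAZ CART19 replicate 2, and 43 and 22 with upper quartile scaling. Only 4 of the called genes reached 1 log2 unit, and the median was 0.45 for the positive and -0.52 for the negative calls. At an unadjusted p under 0.05, 2293 genes passed. Among the 3833 genes with a mean of at least 50 CPM in every group, the middle 90% of interactions lay between -0.25 and 0.28. In bulk RNA such as this, fewer cells of a type and less RNA per cell cannot be told apart.

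Genes changed by CART19 both without and with the drug nearly all changed the same way. CART19 changed 1815 genes (11%) under DMSO, 1033 upward and 782 downward, and 2204 genes (13.4%) under tazemetostat, 1372 upward and 832 downward. These 2 comparisons share no library. They had 944 called genes in common, 52.0% of the first set and 42.8% of the second, and 937 of those had the same sign. Across 9190 genes with a mean of at least 10 CPM, the fold changes had a Pearson's r of 0.815 and a Spearman's rank correlation of 0.414. In 7 genes both effects were called with opposite signs: MT-RNR2, LAPTM5, EIF3E, JCHAIN, CCNL1, CD38 and PRKCB. Each of the 7 fell with CART19 under DMSO and rose under tazemetostat, and each is among the 55 positive calls. With trends removed 4 of these interactions did not pass: MT-RNR2 at 0.43 (adjusted p = 0.140), EIF3E at 0.20 (0.0638), JCHAIN at 0.16 (0.199) and CCNL1 at 0.22 (0.273).

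**Figure D2:**
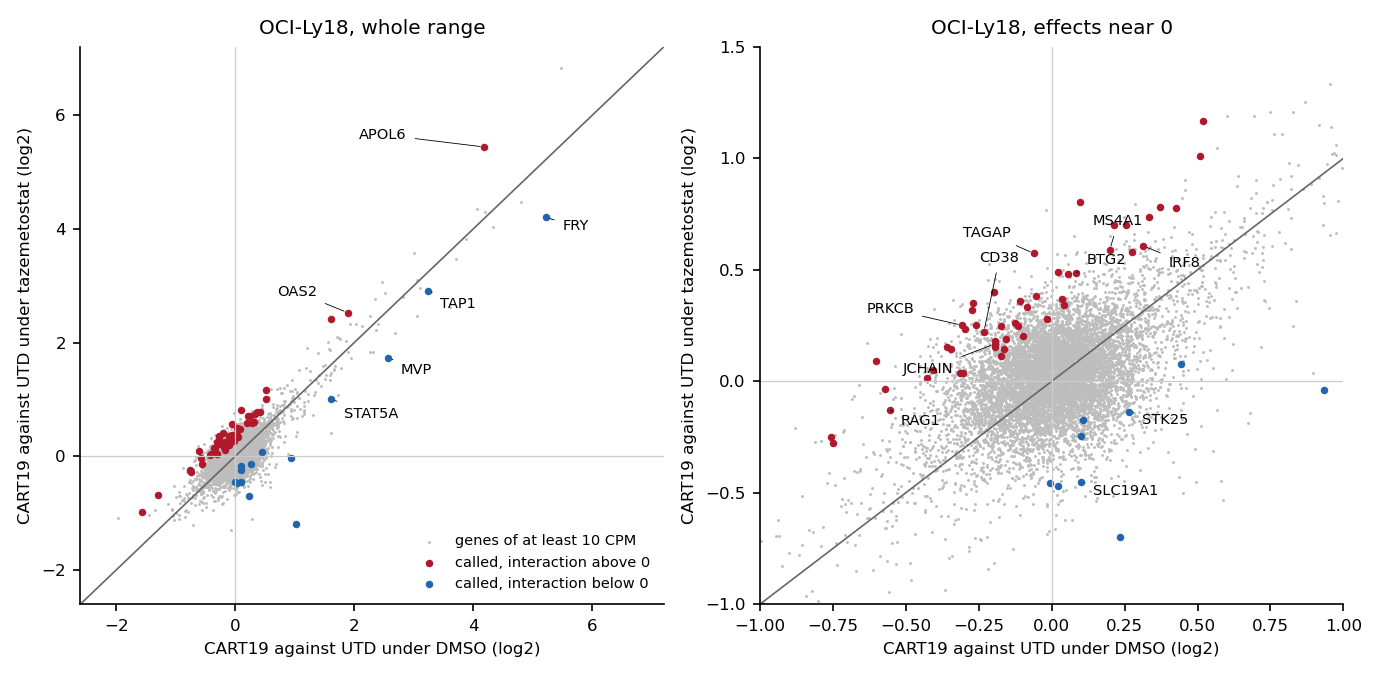
Log2 change with CART19 under DMSO (horizontal) and under tazemetostat (vertical) for OCI-Ly18 genes with a mean of at least 10 CPM (grey) and for the called genes, over the whole range (left) and near 0 (right). The line marks equal effects. Among the called genes changed most by CART19, APOL6 lies above the line, at 4.18 under DMSO and 5.44 under the drug, and FRY below it, at 5.22 and 4.20, and 30 of the 55 positive calls are below 0 under DMSO and above 0 under the drug.

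The group means of the called genes are described next. The calls were selected on these same means, so the selection itself favours different shapes in the positive and negative directions. Of the 55 positive calls, 30 had a lower mean with CART19 under DMSO and a higher mean under tazemetostat, 19 were higher with CART19 under both and 6 lower under both. The TAZ CART19 group had the highest mean in 29, and in 17 of these all 3 of its libraries lay above the other 9. In 42 of the 55 the mean of TAZ UTD was below that of DMSO UTD. Of the 14 negative calls, 8 were higher with CART19 under DMSO and lower under tazemetostat, 5 were higher under both, and DMSO UTD had the lowest mean in 10. The median GC content was 38.9% for the positive calls, 58.7% for the negative and 47.9% for all genes tested. Trend removal kept 33 of the 69 calls, 28 positive and 5 negative, and no gene changed sign. Leaving out each library in turn kept 14 calls in all 12 fits, of which 12 also passed with trends removed: APOL6, PRKCB, MT-TP, SMIM14, RAG1, STAT5A, MS4A1, RASSF6, CCDC88A, CD38, OAS2 and FRY. With limma voom FRY did not pass (adjusted p = 0.119).

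Among the called genes of the interferon lists the largest interaction was that of APOL6, an interferon-induced member of the apolipoprotein L family. APOL6 lies on chromosome 22 at 35648395-35668409 (GRCh38, plus strand). It stood at 8.68, 10.6 and 8.30 CPM in the DMSO UTD libraries and at 2.53, 3.21 and 3.41 CPM in the TAZ UTD libraries. With CART19 it reached 165, 168 and 168 CPM under DMSO and 140, 126 and 135 CPM under tazemetostat. No groups overlapped, and the drug gave lower levels than DMSO with UTD and with CART19 cells. The CART19 change was 4.18 ± 0.0873 log2 units under DMSO and 5.44 ± 0.101 under tazemetostat (± SE, n = 3 libraries a group here and below), an interaction of 1.26 ± 0.148 with an adjusted p of 1.97e-05. Trend removal left 1.13. Log-additive effects would have put TAZ CART19 at 55.3 CPM and the measured mean was 133.5 ± 7.09 (SD). On the linear scale the direction was the opposite: the sum of the separate effects would have given 160.6 CPM, 27.1 ± 4.29 (SE) more than was measured. APOL6 was the only one of the 55 positive calls with opposite signs on the 2 scales.

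OAS2, which makes the oligoadenylates that activate RNase L, was above additive effects on both scales (OAS2 lies on chromosome 12 at 112978395-113011723, plus strand). Its CPM were 30.4, 28.1 and 24.02 in DMSO UTD, 22.7, 18.7 and 21.4 in TAZ UTD, 104, 99.4 and 103 in DMSO CART19 and 122, 117 and 123 in TAZ CART19. The drug lowered OAS2 in UTD cocultures and raised it with CART19, and in neither case did the groups overlap. The interaction was 0.63 ± 0.114 (adjusted p = 0.00594), and 0.63 with trends removed. The excess over the linear sum was 24.9 ± 3.16 CPM.

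IRF8, a transcription factor of germinal centre B cells that interferon gamma also induces, had a smaller positive interaction. It stood at 233 to 239 CPM in DMSO UTD, 138 to 140 in TAZ UTD, 287 to 301 in DMSO CART19 and 203 to 216 in TAZ CART19, with no overlap. The drug lowered it in both settings, by less with CART19. The interaction was 0.29 ± 0.0682 (adjusted p = 0.0420) and 0.35 with trends removed, but the call held in only 2 of the 12 fits with a library left out.

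TAP1 went the other way. It is a subunit of the transporter that carries peptides into the endoplasmic reticulum for MHC class I. Its CPM were 56.3, 55.1 and 60.3 in DMSO UTD, 64.0, 67.4 and 71.3 in TAZ UTD, 535, 548 and 534 in DMSO CART19 and 512, 515 and 498 in TAZ CART19. The drug raised TAP1 in UTD cocultures, while with CART19 its effect of -0.08 did not pass (adjusted p = 0.224). The interaction was -0.32 ± 0.0720 (adjusted p = 0.0327). Trend removal left -0.20 with an adjusted p of 0.14, and the call held in 3 of the 12 fits with a library left out. TAP1 overlaps PSMB9, the immunoproteasome subunit gene on the opposite strand, and the files do not say whether counting used strand.

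The start region of TAP1 is shown because TAP1 is an interferon gamma and MHC class I gene with a negative interaction, and that of BIRC3 because it is an NF-kB gene with a positive one. Both are RefSeq windows of 300 bases on GRCh38.p14, 250 before the start site to 50 after it, taken at the start nearest to the 5′ end of the annotated gene. TAP1 is at chr6:32853655-32853954 on the minus strand and BIRC3 at chr11:102317234-102317533 on the plus strand. Capitals mark matches, found on either strand, to the ISRE letters TTTCNNTTTC or to the NF-kB consensus.
TAP1: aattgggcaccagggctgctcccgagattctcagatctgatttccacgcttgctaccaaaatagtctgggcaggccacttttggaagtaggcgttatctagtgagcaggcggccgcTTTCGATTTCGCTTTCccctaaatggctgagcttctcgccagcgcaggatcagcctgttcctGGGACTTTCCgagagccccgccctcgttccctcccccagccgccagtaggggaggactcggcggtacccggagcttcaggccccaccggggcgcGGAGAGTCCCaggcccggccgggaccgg
BIRC3: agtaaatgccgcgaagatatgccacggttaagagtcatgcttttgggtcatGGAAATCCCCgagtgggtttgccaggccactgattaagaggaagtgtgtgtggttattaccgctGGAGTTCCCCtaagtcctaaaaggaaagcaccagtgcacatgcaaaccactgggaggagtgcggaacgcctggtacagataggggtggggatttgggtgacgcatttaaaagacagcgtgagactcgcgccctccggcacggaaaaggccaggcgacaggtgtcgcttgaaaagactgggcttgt
TAP1 held 2 overlapping ISRE matches beginning at -134 and -128 from the start site, and 2 NF-kB matches. BIRC3 held 2 NF-kB matches and no ISRE match. Neither window, nor those of PRKCB and STAT5A, held the GAS letters TTCNNNGAA, the AP-1 letters TGANTCA or the E-box CACGTG. The PRKCB and STAT5A windows, which were searched but are not shown, held no ISRE or NF-kB match either. Among 35116 RefSeq windows of the same length, 3.57% held the ISRE letters, 11.3% the NF-kB consensus, 7.66% GAS, 7.71% AP-1 and 7.26% the E-box. A match describes letters and not a bound site.

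STAT5A and FRY were raised by the drug and by CART19 alike, and fell short of the log-additive level with both. STAT5A encodes a transcription factor of cytokine signalling (chromosome 17 at 42287547-42311943, plus strand). Its CPM were 21.6, 24.7 and 23.6 in DMSO UTD, 70.4, 66.8 and 65.3 in TAZ UTD, 67.5, 75.2 and 71.0 in DMSO CART19 and 142, 132 and 133 in TAZ CART19. Only TAZ UTD and DMSO CART19 overlapped. CART19 raised it by 1.61 ± 0.0745 under DMSO and 1.01 ± 0.0669 under tazemetostat, an interaction of -0.61 ± 0.0997 (adjusted p = 0.00211) that was -0.48 with trends removed. FRY, which encodes a large scaffold protein of mitosis and cell shape, stood at 1.47 to 2.57 CPM in DMSO UTD, 5.49 to 7.29 in TAZ UTD, 73.5 to 82.0 in DMSO CART19 and 112 to 130 in TAZ CART19. Its interaction was -1.02 ± 0.192 (adjusted p = 0.00838), and -1.01 with trends removed, but it did not pass with limma voom. For both genes the linear scale gave the opposite sign. STAT5A was 20.02 ± 4.25 CPM and FRY 39.4 ± 5.76 CPM (SE) above the sum of the separate effects. They were the only ones of the 14 negative calls with opposite signs on the 2 scales.

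MVP, the major vault protein, had overlapping levels with CART19 under DMSO and under the drug (drug effect -0.03 ± 0.118, adjusted p = 0.903). It had 5.02 ± 0.838 CPM in DMSO UTD, 8.78 ± 1.14 in TAZ UTD, 29.8 ± 1.78 in DMSO CART19 and 29.3 ± 3.30 in TAZ CART19 (SD). The UTD groups did not overlap and the CART19 groups did. The interaction was -0.84 ± 0.193 (adjusted p = 0.0414), and with trends removed -0.66 with an adjusted p of 0.117. The call held in 3 of the 12 fits with a library left out and did not pass with limma voom (adjusted p = 0.0893). MVP overlaps AC009133.1 on the opposite strand, which had 1872 counts against 3796 for MVP.

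**Figure D3:**
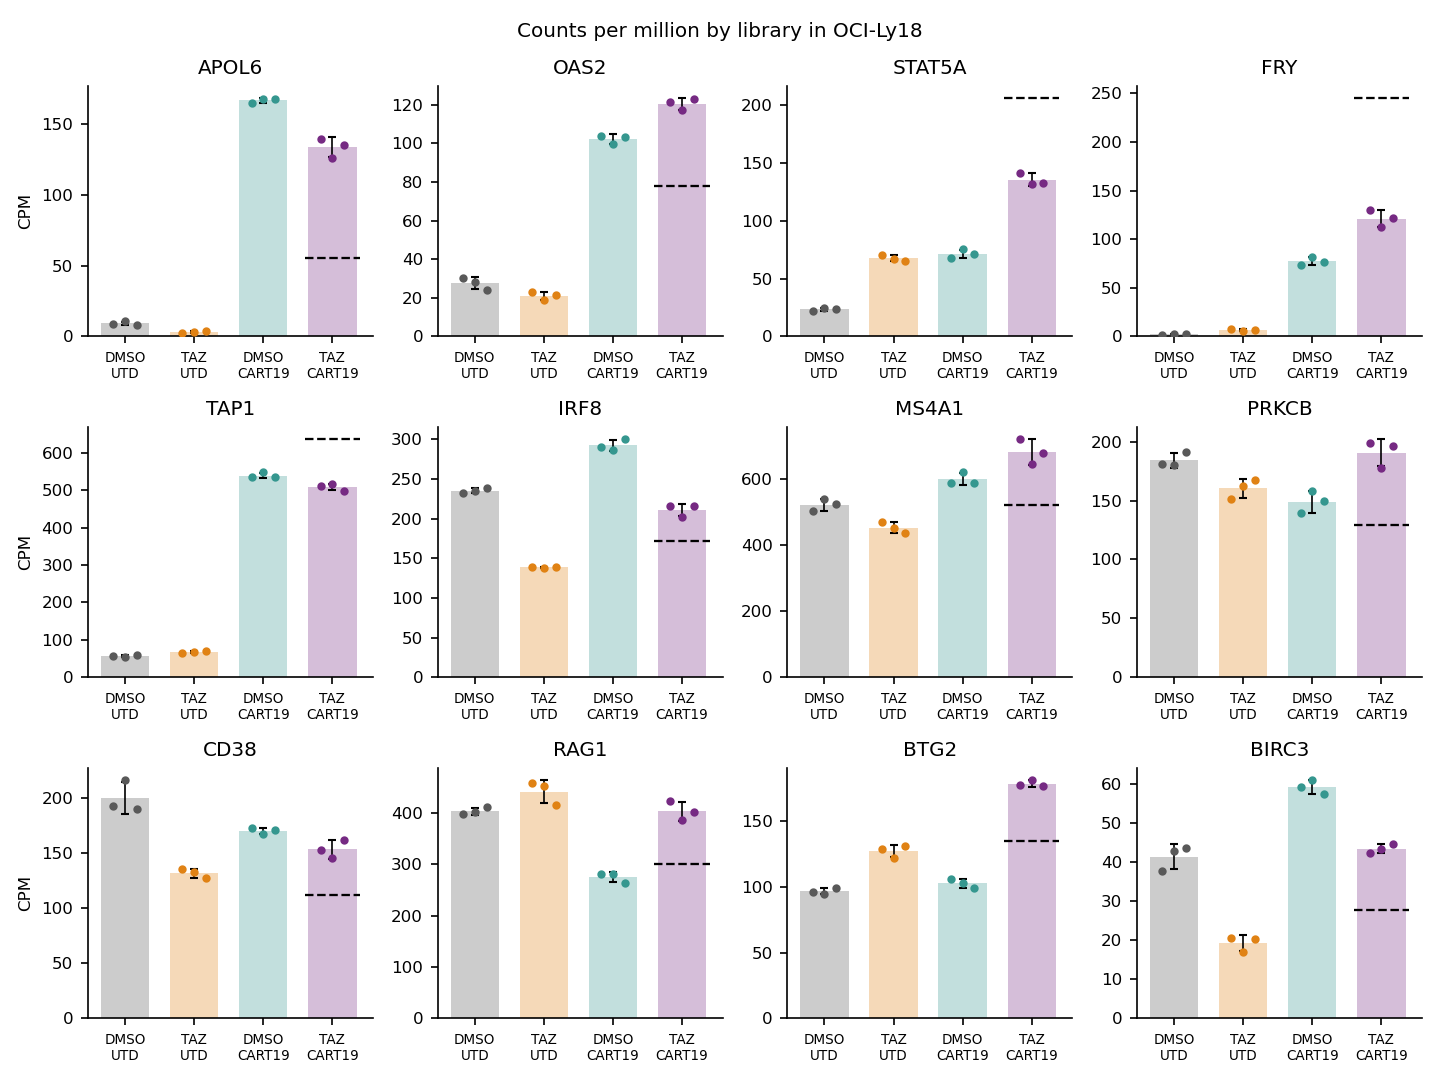
CPM of 12 called genes in each OCI-Ly18 library (points), with group means (bars) and SD (error bars, n = 3). The dashed line over TAZ CART19 is the level that log-additive effects of the drug and of CART19 would give. APOL6, OAS2, IRF8, PRKCB, MS4A1, CD38 and RAG1 lie above it, and STAT5A, FRY and TAP1 below it.

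Most genes of the B cell lists were not called. Of the 10 B cell lymphoma markers MS4A1 alone was called, 2 had a positive interaction, and the median was -0.07 (0.019 with trends removed). Of 34 germinal centre and B cell genes, MS4A1 and CD38 were called, 22 had a positive interaction, and the median was 0.06. The called genes with a role in B cells that follow were taken from several lists and from the largest calls, and do not stand for B cell genes as a group. PRKCB encodes protein kinase C beta, which relays B cell receptor signals to NF-kB (chromosome 16 at 23835946-24220611, plus strand). It stood at 181, 180 and 191 CPM in DMSO UTD, 151, 162 and 167 in TAZ UTD, 140, 158 and 150 in DMSO CART19 and 199, 178 and 196 in TAZ CART19. The drug lowered PRKCB with UTD cells and raised it with CART19 cells, and CART19 lowered it under DMSO and raised it under the drug. TAZ CART19 overlapped with DMSO UTD, and TAZ UTD with DMSO CART19. The interaction was 0.56 ± 0.0819 (adjusted p = 6.26e-04), and 0.55 with trends removed (adjusted p = 3.00e-06).

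MS4A1, which encodes CD20 (chromosome 11 at 60455752-60470760, plus strand), was likewise lowered by the drug with UTD cells and raised by it with CART19 cells. Its CPM were 503, 539 and 524 in DMSO UTD, 471, 452 and 436 in TAZ UTD, 589, 620 and 587 in DMSO CART19 and 721, 645 and 678 in TAZ CART19. Every TAZ CART19 library was above every other library and every TAZ UTD library below. The interaction was 0.39 ± 0.0671 (adjusted p = 0.00371), or 0.21 with trends removed (adjusted p = 0.0252).

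CD38, a surface ectoenzyme of germinal centre and plasma cells, and JCHAIN, the joining chain of polymeric immunoglobulin, were lowered by the drug in UTD cocultures, by 0.60 and 0.50 log2 units. With CART19 the drug effect was -0.15 for CD38 (adjusted p = 0.0562) and -0.13 for JCHAIN (adjusted p = 0.0480). CD38 had 190 to 216 CPM in DMSO UTD, 127 to 135 in TAZ UTD, 167 to 172 in DMSO CART19 and 145 to 162 in TAZ CART19. None of these ranges overlap. Its interaction was 0.45 ± 0.0803 (adjusted p = 0.00444), and 0.36 with trends removed. JCHAIN had 447 to 498, 321 to 342, 401 to 414 and 353 to 389 CPM in the same order, again without overlap. Its interaction was 0.36 ± 0.0691 (adjusted p = 0.00838), and with trends removed 0.16 with an adjusted p of 0.199.

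RAG1, the recombinase gene active in B cell precursors, was not in the rule for named genes and was picked after its values were seen. It stood at 397 to 411 CPM in DMSO UTD, 416 to 458 in TAZ UTD, 263 to 282 in DMSO CART19 and 386 to 423 in TAZ CART19. Only the DMSO CART19 libraries stood apart, below all others. CART19 changed RAG1 by -0.55 ± 0.0492 under DMSO and by -0.13 ± 0.0486 under the drug, where the adjusted p was 0.0722. The interaction was 0.42 ± 0.0691 (adjusted p = 0.00211), and 0.32 with trends removed. RAG1 overlaps RAG2 on the opposite strand, which had 16764 counts over the 12 libraries against 78251 for RAG1.

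BTG2, an antiproliferative gene that p53 induces, and TAGAP, a GTPase-activating protein of lymphocytes, rose with CART19 under the drug, by 0.49 and 0.57 log2 units. Under DMSO the CART19 effects were 0.08 and -0.06 (adjusted p = 0.399 and 0.762). BTG2 had 94.9 to 99.2 CPM in DMSO UTD, 122 to 131 in TAZ UTD, 99.5 to 106 in DMSO CART19 and 177 to 181 in TAZ CART19. The interaction was 0.40 ± 0.0776 (adjusted p = 0.00907), and 0.45 with trends removed. TAGAP had 33.4 to 38.2 CPM in DMSO UTD, 22.7 to 25.6 in TAZ UTD, 34.6 to 34.8 in DMSO CART19 and 34.3 to 36.8 in TAZ CART19, so that the TAZ UTD group alone stood apart. Its interaction was 0.63 ± 0.127 (adjusted p = 0.0137), and 0.64 with trends removed.

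BIRC3, an inhibitor of apoptosis that NF-kB induces, was lowest in TAZ UTD. It had 37.8 to 43.5 CPM in DMSO UTD, 17.1 to 20.5 in TAZ UTD, 57.5 to 61.0 in DMSO CART19 and 42.3 to 44.6 in TAZ CART19. CART19 raised it by 0.52 ± 0.0851 under DMSO and by 1.17 ± 0.0905 under tazemetostat, where its libraries overlapped those of DMSO UTD. The interaction was 0.65 ± 0.124 (adjusted p = 0.00838), and with trends removed 0.43 with an adjusted p of 0.107.

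Other positive calls that passed both kinds of check were RASSF6, SMIM14 and CCDC88A. RASSF6 encodes a Ras association domain protein, and CART19 changed it by -1.56 ± 0.0726 log2 units under DMSO and by -0.98 ± 0.0708 under the drug, an interaction of 0.58 ± 0.101 (adjusted p = 0.00406), or 0.40 with trends removed. Its group means were 94.8, 81.4, 32.1 and 41.2 CPM. SMIM14, a small membrane protein gene, and CCDC88A, which encodes the actin-binding protein girdin, lay outside the naming rule and were picked after their values were seen. SMIM14 had mean levels of 139, 84.8, 198 and 171 CPM and an interaction of 0.50 ± 0.0806, or 0.36 with trends removed. CCDC88A had mean levels of 132, 148, 134 and 208 CPM and an interaction of 0.47 ± 0.0820, or 0.33 with trends removed, and the TAZ CART19 libraries, at 193 to 218 CPM, lay above all others.

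Of the remaining positive genes under the rule, RICTOR, the defining subunit of mTOR complex 2, had an interaction of 0.59 ± 0.132 and STK39, a stress-response kinase, one of 0.54 ± 0.108. Both passed with trends removed, at 0.41 and 0.52 (adjusted p of 0.0467 and 0.00226). USP53, ARRDC3, PBX3 and CEP290 had interactions of 0.69, 0.62, 0.60 and 0.53. With trends removed they were 0.48, 0.44, 0.54 and 0.34 and did not pass (adjusted p of 0.117, 0.110, 0.0509 and 0.183). RICTOR held in 4 of the 12 fits with a library left out and STK39 in 9.

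Of the remaining negative genes, IL11RA, a cytokine receptor subunit, rose with the drug in UTD cocultures from 5.35 ± 0.615 to 18.1 ± 1.88 CPM and with CART19 from 10.3 ± 1.85 to 17.7 ± 2.07 CPM (SD). Its interaction of -0.97 ± 0.216 (adjusted p = 0.0327) was -0.86 with trends removed (adjusted p = 0.0409), and the call was lost in 8 of the 12 fits with a library left out. IL11RA overlaps GALT on the same strand, and reads could be split between them. SETBP1, which binds the SET protein, had an interaction of -0.37 ± 0.0842 (adjusted p = 0.0381), or -0.35 with trends removed (adjusted p = 0.00758), and the call was lost in 10 of the 12 fits with a library left out. ANO9, SLC19A1, TESK1, TROAP, STK25 and LENG8 had interactions of -0.93, -0.55, -0.49, -0.45, -0.40 and -0.35. With trends removed they were -0.73, -0.32, -0.26, -0.31, -0.27 and -0.17, and none passed. SLC19A1 is the reduced folate carrier. These 6 genes have a GC content between 58.1% and 65.2%.

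Under the same rule 3 non-coding genes were named. MT-TP, the mitochondrial proline tRNA, had 60.2 ± 5.79, 63.5 ± 3.21, 64.2 ± 6.83 and 111 ± 6.55 CPM (SD), with only the last group apart, and an interaction of 0.71 ± 0.111 (adjusted p = 0.00137) that was 0.50 with trends removed (adjusted p = 0.0405). NCF1B is a copy of the NADPH oxidase gene NCF1, and whether reads were shared between them was not tested. It had an interaction of 0.79 ± 0.188 (adjusted p = 0.0464), or 0.98 with trends removed (adjusted p = 0.00126). Its call was lost in 10 of the 12 fits with a library left out. AL021707.7, an antisense gene with 93 counts over the 12 libraries, had an interaction of 4.49 ± 1.05 that rests on those few counts. With trends removed it was 4.33 and did not pass (adjusted p = 0.0569). All 13 mitochondrially encoded mRNAs had a positive interaction without any call, with a median of 0.24 against 0.0015 over all genes tested (0.245 with trends removed), and 11 of them had their highest mean in TAZ CART19. The ribosomal RNA MT-RNR2, picked after its values were seen, had 6402 ± 346, 6079 ± 260, 5344 ± 188 and 7238 ± 389 CPM and an interaction of 0.51 ± 0.0623. With trends removed it was 0.43 and did not pass (adjusted p = 0.140).

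**Figure D4:**
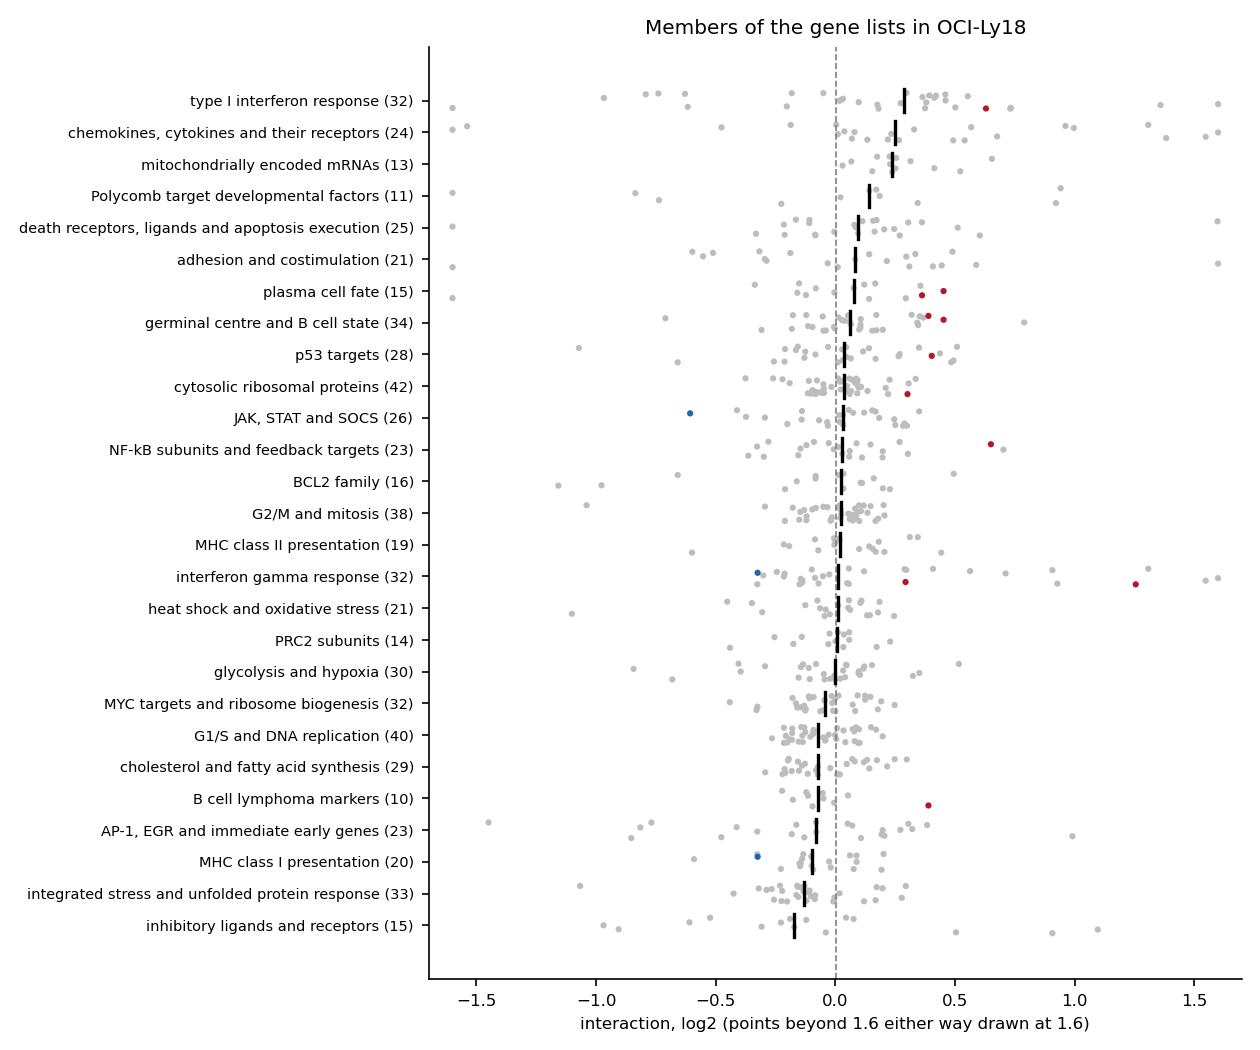
Log2 interaction of each tested member of 27 gene lists with at least 10 tested members, in OCI-Ly18. Red and blue points are called above and below 0, grey points are not called, black bars are list medians and the dashed line is the median of all genes tested. Medians run from -0.17 for inhibitory ligands and receptors to 0.29 for type I interferon genes, and no list has more than 3 called members.

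The gene lists are described next. Of 30 lists, 20 had no called member. Over all genes tested 0.419% were called, a share at which a short list often holds no call. The number of lists without a call is therefore no result about the lists. In the interferon gamma list 2 of 32 tested members were called higher (APOL6 and IRF8) and 1 lower (TAP1). With CART19, 30 of its members were called higher under DMSO and all 32 under tazemetostat, with median effects of 2.83 and 2.85. The median interaction was 0.01, or 0.104 with trends removed.

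The type I interferon list had 1 of 32 members called, OAS2, and a median of 0.29, the highest of the lists drawn. It was 0.244 with trends removed, and without TAZ CART19 replicate 1 it was 0.087. In 23 of its 32 members the interaction was positive. The RNA sensor DDX58 had 0.46 ± 0.130 (adjusted p = 0.0953) and BST2, a membrane protein that tethers virions, 0.39 ± 0.114 (adjusted p = 0.103). BST2 did pass with trends removed, at 0.52 (adjusted p = 0.00144).

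All 20 tested MHC class I genes were called higher with CART19 under DMSO and under tazemetostat, and so were 15 of 19 MHC class II genes under each. TAP1 was the only called interaction, the medians were -0.10 and 0.02, and trend removal took them to -0.021 and 0.077. B2M, the light chain of MHC class I, had 438 ± 16.9, 393 ± 4.33, 1248 ± 12.9 and 1191 ± 24.7 CPM (SD). Its interaction was 0.09 ± 0.0590 (adjusted p = 0.527, 95% interval -0.05 to 0.23) and changed sign with trends removed. NLRC5, the transactivator of class I genes, had -0.14 ± 0.0675 (adjusted p = 0.354) and also changed sign there, as did CIITA, that of class II genes, at -0.08 ± 0.0706 (adjusted p = 0.629).

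CD38 and JCHAIN were called among 15 plasma cell genes. PRDM1, the plasma cell regulator, had 1.13 ± 0.466, 2.99 ± 0.691, 3.02 ± 0.369 and 2.23 ± 0.276 CPM (SD), with an interaction of -1.84 ± 0.462 that did not pass (adjusted p = 0.0629). BIRC3 was the call among 23 NF-kB genes, STAT5A among 26 JAK, STAT and SOCS genes and BTG2 among 28 p53 targets. RPS4X, at 0.30 ± 0.0645 (0.24 with trends removed), was the call among the 42 ribosomal protein genes listed. RPS3A, a ribosomal protein gene outside that list, was also called, at 0.29. With trends removed it was 0.17 and did not pass (adjusted p = 0.108). The list of 14 Polycomb repressive complex subunits had no call, and EZH2 itself had an interaction of 0.001 ± 0.0739 (95% interval -0.17 to 0.17). MYC, at -0.14 ± 0.0619, BCL6, at -0.05 ± 0.0713, and CDKN1A, at -0.26 ± 0.129, did not pass either. Of 23 anchor genes, MS4A1 alone was called.

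The same interaction was tested in SU-DHL-4. There 133 of 14861 genes tested (0.895%) were called, 40 (0.269%) higher and 93 (0.626%) lower. Across 3171 genes with at least 50 CPM in every group of both lines, the interactions of the lines had a Pearson's r of 0.230, and across all 13778 genes tested in both it was 0.061. Of the 69 OCI-Ly18 calls, 65 were tested in SU-DHL-4, 40 with the same sign. Called in both lines were 7 genes, 10.1% of the OCI-Ly18 set and 5.26% of the SU-DHL-4 set: MT-TP, BTG2, HCFC1, RPS4X, RPS3A, TAP1 and MVP. BTG2 had opposite signs. Over all genes tested the share called was 0.895% in SU-DHL-4 and 0.419% in OCI-Ly18. With trends removed in OCI-Ly18, HCFC1 was -0.09 (adjusted p = 0.561) and RPS3A 0.17 (adjusted p = 0.108). Neither passed, and TAP1 and MVP did not pass there either, while MT-TP, BTG2 and RPS4X did.

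The test of the difference itself, OCI-Ly18 minus SU-DHL-4 in a fit of all 24 libraries, called 35 of 17766 genes (0.197%), 30 (0.169%) with a higher and 5 (0.0281%) with a lower interaction in OCI-Ly18. Of the 69 OCI-Ly18 calls 12 were among them. HLA-B, a classical MHC class I heavy chain, had 204 ± 11.3, 235 ± 16.2, 579.95 ± 9.70 and 602 ± 53.8 CPM (SD) in OCI-Ly18, and an interaction of -0.15 ± 0.0813. In SU-DHL-4 it had 7.83, 31.8, 361 and 502 CPM on average, and an interaction of -1.54 ± 0.0972 (adjusted p = 5.64e-16). The difference of 1.40 ± 0.131 passed (adjusted p = 2.11e-09). NLRC5 had 137, 166, 432 and 474 CPM in OCI-Ly18 and 6.22, 19.7, 190 and 261 CPM in SU-DHL-4, with a difference of 1.07 ± 0.138 (adjusted p = 8.99e-06). Both genes thus started much lower in SU-DHL-4 than in OCI-Ly18. On the linear scale the SU-DHL-4 means of both genes went the other way, with TAZ CART19 above the sum of the separate effects. No spread was computed for these linear departures in SU-DHL-4.

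On the log2 scale TAP1 and MVP had negative interactions in both lines, of -0.63 ± 0.0835 and -0.67 ± 0.159 in SU-DHL-4. Their line differences did not pass (adjusted p = 0.275 and 0.926). MVP had mean levels of 8.02, 23.9, 34.9 and 65.1 CPM in SU-DHL-4, where TAZ CART19 was above the linear sum of the separate effects. PRKCB had an interaction of -0.46 ± 0.171 in SU-DHL-4 (adjusted p = 0.239), and its line difference of 1.02 ± 0.185 passed (adjusted p = 0.00847). Its SU-DHL-4 means were 8.94, 44.8, 14.3 and 52.7 CPM, with TAZ CART19 slightly above the linear sum there. MS4A1, IRF8, OAS2 and TAGAP had SU-DHL-4 interactions of -0.11, -0.20, -0.07 and -0.39, none of them called, and their line differences passed at 0.50, 0.49, 0.70 and 1.02. APOL6 had 0.40 ± 0.237 in SU-DHL-4 (adjusted p = 0.549) and its difference of 0.85 ± 0.294 did not pass (adjusted p = 0.264).

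**Figure D5:**
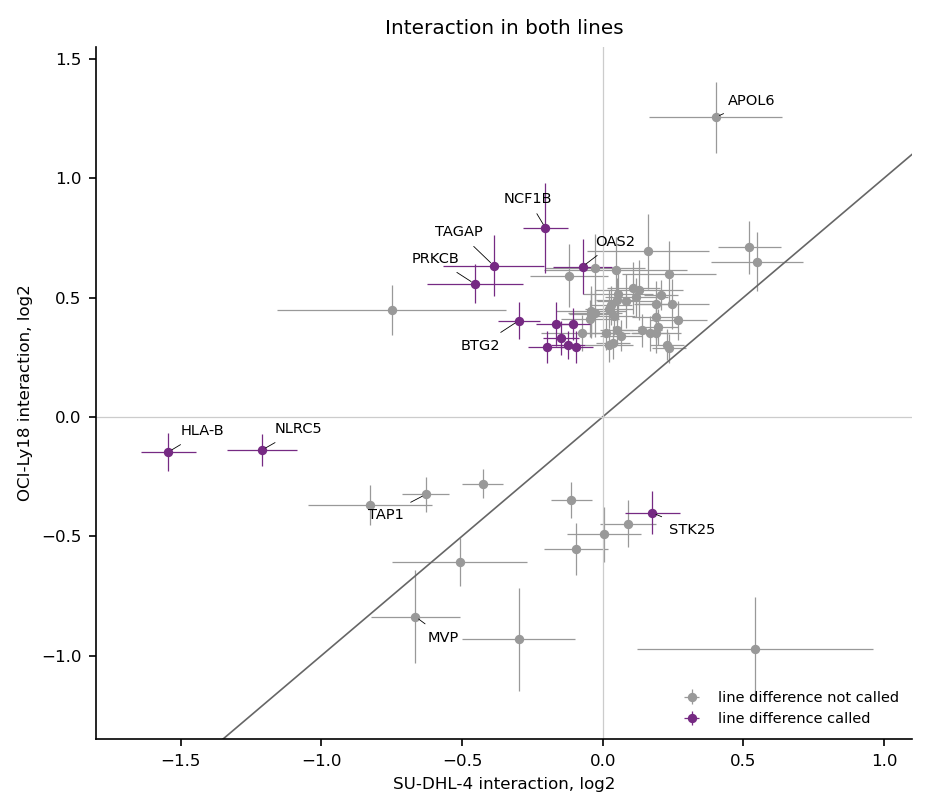
Log2 interaction in SU-DHL-4 (horizontal) and OCI-Ly18 (vertical) with SE, for 64 genes, which are HLA-B, NLRC5 and the OCI-Ly18 calls under 2 log2 units with an SE under 0.6 in SU-DHL-4. The line marks equality and purple points have a called line difference. HLA-B and NLRC5 lie far to the left, at -1.54 and -1.21 in SU-DHL-4, and 12 OCI-Ly18 calls are purple.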

How the data were processed

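RNA of sorted live GFP+ cells of OCI-Ly18 and SU-DHL-4 was sequenced with a NEB kit, per the labels. The deposited table holds whole-number counts per gene, not normalized. The submitters' processing notes name hg38 and DESeq2, and neither aligner, counter nor strand setting is given in the sources used. The 58735 gene IDs matched GENCODE release 29, and 27 symbols that a spreadsheet had turned into dates were restored by ID. The sample sheet gave the replicate numbers.

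The members and gene lists were chosen with earlier results of these data known. Counts of each line (12 libraries, 4 groups of 3) were fitted with edgeR 4.0.16 (R 4.3.3; TMM scaling, filterByExpr, robust quasi-likelihood F test), with Benjamini-Hochberg adjustment over all genes tested and a threshold of 0.05. SE is the log2 value divided by the square root of F. CPM are counts scaled to the TMM-adjusted library total. The common biological coefficient of variation was 0.0855 in OCI-Ly18. The line difference used all 24 libraries. The test was tried on simulated data.

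Named genes were the 12 largest positive and 12 largest negative called protein coding genes with at least 5 CPM in the highest group, up to 4 called members of each list, 23 anchors, the 3 largest non-coding calls and up to 4 called genes each for SU-DHL-4 and the line difference. Alternatives were RLE and upper quartile scaling, no or stricter filtering, DESeq2 1.42.0, limma voom 3.58.1, a replicate block, each library left out, a fit of all libraries and removal of GC and length trends (natural splines with 4 df per library). GC removal alone, GC and length removal with the block, and their removal in the other line and the line difference were added after seeing the data. No pairing by replicate number was seen: 4 of 18 same-number correlations passed 0.1, from -0.346 to 0.195. These compare deviations from group means, which also followed GC content in single libraries, so they cannot exclude pairing. A few anchor genes are not reported here.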

Additional observations from a re-analysis of the deposited data

Results flagged for a closer look

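For 10 of the genes described, the interaction differed between the lines by the test of the difference itself, edgeR's quasi-likelihood test over 24 libraries. The OCI-Ly18 minus SU-DHL-4 difference in log2 was 1.40 for HLA-B, 1.07 for NLRC5, 1.02 for PRKCB, 1.02 for TAGAP, 0.99 for NCF1B, 0.70 for BTG2, 0.70 for OAS2, 0.50 for MS4A1, 0.49 for IRF8 and -0.58 for STK25. The adjusted p ran from 2.11e-09 for HLA-B to 0.0396 for STK25. For HLA-B and NLRC5 it is the SU-DHL-4 interaction that is called, and for BTG2 both lines are called with opposite signs. For the other 7 the OCI-Ly18 interaction alone is called. Groups of 3 libraries were too small to look for libraries that stand apart gene by gene.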

How the results depend on the processing

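The number of called genes in OCI-Ly18, 55 positive and 14 negative, depended on the setting. It was 183 and 123 without a filter, 166 and 72 with DESeq2, 96 and 30 in the fit of all 24 libraries, 22 and 3 with the replicate block, 226 and 149 without both TAZ CART19 replicates 1 and 2, and 2 and 2 at 1 log2 or more. The negative count was 22 with upper quartile scaling, 8 with the GC trend alone removed and 5 with both trends removed and the replicate block. With 1 library left out in turn it ran from 13 (without DMSO CART19 replicate 3) to 571 (without TAZ CART19 replicate 2) positive and from 2 to 411 negative calls in the same fits. In SU-DHL-4, 40 and 93 became 102 and 155 with DESeq2 and 65 and 152 with trends removed, and ran from 17 to 182 and from 20 to 232 with 1 library left out. The line difference, 30 and 5, became 46 and 25 without a filter, 120 and 15 with DESeq2, 16 and 1 with limma voom, 15 and 2 with the replicate block, 16 positive with upper quartile scaling and 58 positive with trends removed, and ran from 15 to 197 and from 0 to 39 with 1 library left out. Fewer libraries or genes enter some of these fits, and the cause of the differences was not tested. TAZ CART19 replicate 2 of OCI-Ly18, without which most genes were called there, had the highest r with GC content against its group mean, 0.570. RLE scaling and the stricter filter moved no OCI-Ly18 count by over 1.5 times.

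Among the named genes, signs changed only for anchors that were not called. EZH2, at 0.001, was -0.017 with upper quartile scaling, -0.002 with the stricter filter, -0.087 with trends removed, with or without the block, -0.081 with the GC trend alone removed and -0.026 without both TAZ CART19 replicates 1 and 2. With trends removed B2M was -0.033 (-0.034 with the block, -0.030 for GC alone), NLRC5 0.007 and CIITA 0.013, both the same with the block. NFKBIA was -0.006 with upper quartile scaling, -0.012 with limma voom and -0.013 without both TAZ CART19 replicates 1 and 2, where IRF4 was 0.039 and LRP5 -0.029. With 1 library left out EZH2 ran from -0.034 to 0.054, IRF4 from -0.049 to 0.044, NFKBIA from -0.135 to 0.134 and LRP5 from -0.342 to 0.425. A few anchors passed in 1 or 2 settings, given with their adjusted p: PRDM1 without a filter (0.0288) and without TAZ CART19 replicate 2 (0.0251), CEBPD in the latter (0.0244), and HLA-B (0.0375) and MYC (0.0299) without both TAZ CART19 replicates 1 and 2. With 3 libraries a group, depth limits genes under a few CPM.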

Other observations

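The effect of tazemetostat with UTD cells and with CART19 cells, 2 comparisons that share no library, gives the same departures from the other side. The drug changed 4006 genes (24.3%) in OCI-Ly18 with UTD cells, 1916 upward and 2090 downward, and 3564 (21.6%) with CART19 cells, 1819 upward and 1745 downward. They had 2106 genes in common, 52.6% of the first set and 59.1% of the second, of which 2095 had the same sign and 11 the opposite one.

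With GC and length trends removed, 40 genes were called that were not called as counted, 33 with a positive and 7 with a negative interaction. Chosen after their values were seen, they include CD37, a tetraspanin of B cells, at 0.39 ± 0.0611 (adjusted p = 3.50e-04) against 0.26 as counted.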
